A study of Rattus norvegicus with 23 samples.

Results

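Valine tRNA reads were described in sperm RNA of rats that had breathed ozone or filtered air. The members are the 14 rows of the tRNA table whose names begin with tRNA-Val, out of 273 rows in all, and they were chosen by name and not by their values. They fall into 5 rows with the anticodon AAC, 6 with CAC and 3 with TAC. A further 3 rows named tRX-Val are not members and are given only for comparison.

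The RNA came from sperm of the cauda epididymis, the storage end of the duct in which sperm mature, of male Long-Evans rats. There were 7 libraries from rats kept in filtered air, 8 from rats in 0.4 ppm ozone and 8 from rats in 0.8 ppm ozone, in chambers that averaged 0.401 and 0.798 ppm for the ozone groups. Exposures of 4 h were given 3 times in the first week and 2 times in the second. The series' design text names 8 rats per group, against the 7 labelled air libraries, and no age is stated for the rats. RNA under 200 nucleotides was isolated and read as single ends of 75 cycles. Each library is a separate rat, so the tests below measure the spread between animals.

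Transfer RNAs carry amino acids to the ribosome, and valine is served by 3 anticodons. The AAC tRNA has its first anticodon base turned into inosine, which lets it read several valine codons, the CAC tRNA reads the codon GUG, and the TAC tRNA reads mainly GUA. Mature sperm make little protein, and much of their small RNA is made of tRNA fragments, often the 5′ part of the molecule. Fragments of Gly-GCC, Glu-CTC and Val-CAC are well known among those of mammalian sperm, where such fragments are studied as carriers of paternal exposure to the embryo. In the gene names, the last number counts gene copies and the number before it counts distinct mature sequences, so that copies with the same number have the same mature tRNA. Names that begin with tRX are given to weaker predictions, and NNN marks an anticodon that was not resolved. The values used here are a scaled read signal per row, and they do not tell a whole tRNA from a fragment.

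Reads of the tRNA table, recovered from the scaled values, numbered between 164342 and 481504 in a library (median 391901), and 1 read was worth between 0.460 and 2.42 units of signal. Between 7086 and 30683 of those reads per library lay in the valine rows. No value of the tRNA table was 0. Sperm identity was checked on the miRNA table, where the germ-cell list (miR-34b, miR-34c and miR-449a, all 3 measured) held 39.9% ± 7.68 of the signal (SD, n = 23), from 23.6% to 51.3%. The lists for other cells were detected too, at 1.67% to 6.26% for leukocytes (4 of 4 miRNAs measured), 1.54% to 11.3% for muscle and stroma (3 of 5), 0.688% to 3.23% for epithelium (5 of 5) and 0.0107% to 0.206% for erythroid cells (2 of 3). By group, the germ-cell share was 42.6% ± 5.46 over the air libraries, 35.6% ± 6.50 over those of 0.4 ppm and 41.7% ± 9.25 over those of 0.8 ppm (SD). In the same order, epithelium held 1.14% ± 0.325, 1.78% ± 0.716 and 1.28% ± 0.719, and muscle and stroma 1.95% ± 0.523, 2.85% ± 0.704 and 3.24% ± 3.29. At 0.4 ppm the epithelial share was above the highest air library in 6 of 8 libraries, and that of muscle and stroma was above the air median in 8 of 8. In such bulk samples, fewer cells and less RNA per cell cannot be told apart.

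Valine tRNA made up 5.08% ± 2.03 of the tRNA signal (SD, n = 23), from 2.57% to 10.8% in single libraries. The Wilson 95% intervals of those extreme libraries were 2.51% to 2.63% and 10.6% to 10.9%, so the spread between rats was far wider than the counting error, which is all that these intervals cover. AAC was the main anticodon with 3.66% ± 1.60 of the table, and ranked 8 of 55 isoacceptor sums. Isoacceptors are the tRNAs of an amino acid that share an anticodon. The 55 sums also include tRX labels with no resolved anticodon, such as tRX-Gly-NNN, which held 5.93%. CAC held 1.39% ± 0.453 and ranked 13. TAC held 0.0347% ± 0.0147 and ranked 42. Of the valine signal itself, AAC made up 71.4% ± 3.29, CAC 27.9% ± 3.18 and TAC 0.758% ± 0.399 (each SD, n = 23). The AAC part ran only from 66.5% to 76.7%, while the total valine share varied 4.18-fold within the 0.4 ppm group alone.

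**Figure D1:**
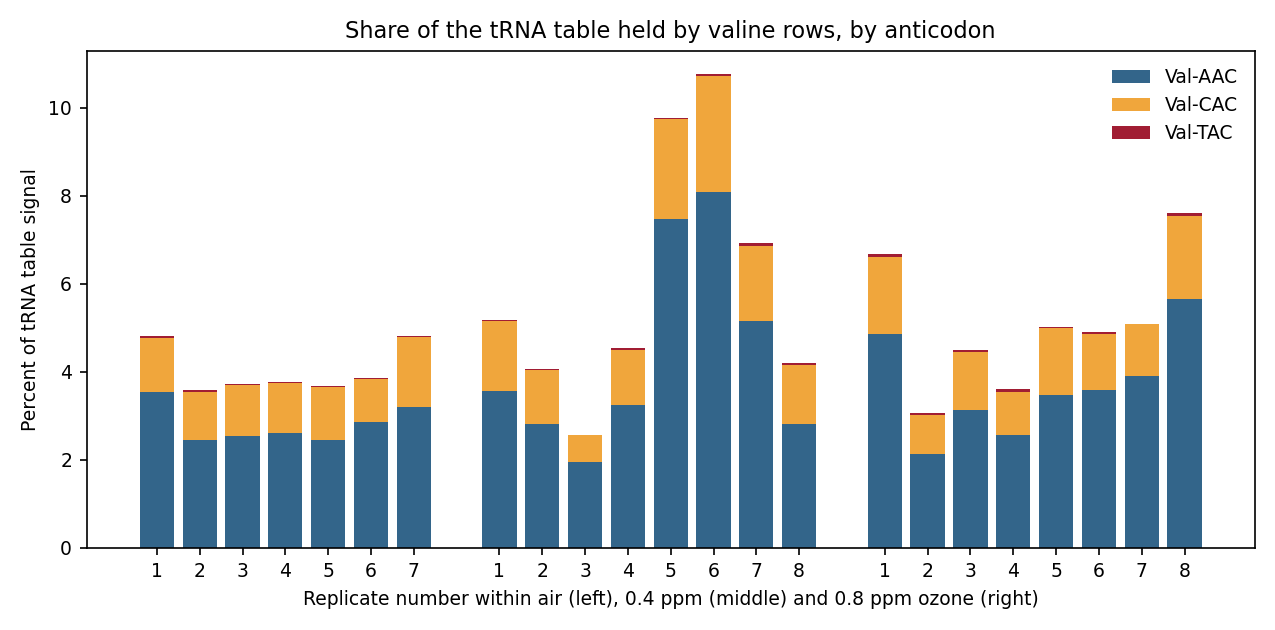
Percent of the tRNA table signal (vertical axis) held by valine rows in each of the 23 libraries (horizontal axis, replicate number within group), stacked by anticodon. The 7 air libraries lie between 3.59% and 4.81%, 0.4 ppm replicates 5 and 6 reach 9.77% and 10.8%, and AAC is the larger part of every bar.

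The most abundant valine rows were AAC-1-1 and AAC-1-2, which ranked 10 and 11 among all 273 rows. AAC-1-1 averaged 5098 ± 2189 units and AAC-1-2 averaged 5074 ± 2170 (SD, n = 23). They could not be told apart in any library: the ratio of AAC-1-1 to AAC-1-2 stayed between 0.971 and 1.05, and the split of their 239436 reads varied between libraries 1.03 times as much as counting alone would give. Together they held 58.0% ± 5.21 of the valine signal. The figure of 1.03, like those against counting noise below, is chi-square over its degrees of freedom, a ratio of variances. Where it is above 1, the same relative spread gives a larger figure with more reads.

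Below this pair lay 8 rows at nearly the same level, from a mean of 764.0 for CAC-3-1 to 833.3 for CAC-1-2. They comprised 3 AAC rows (AAC-1-3, AAC-1-4 and AAC-2-1) and 5 CAC rows (CAC-1-1, CAC-1-2, CAC-1-3, CAC-2-1 and CAC-3-1). Within a library the highest of the 8 exceeded the lowest by a factor of 1.06 to 1.34, and the division of reads among them varied 1.22 times as much as counting noise. Split by anticodon, into 5 CAC and 3 AAC rows, the division of reads varied 2.06 times as much as counting noise. The steps between the 8 rows were small but recurred: CAC-1-1, CAC-1-2, CAC-1-3 and CAC-2-1 each held more reads than CAC-3-1 and the 3 AAC rows in 19 to 23 of 23 libraries. Together the 8 rows held 37.2% ± 5.29 of the valine signal (SD, n = 23).

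The large step in level did not follow the anticodon. AAC-1-3 and AAC-1-4 share the transcript number of AAC-1-1 and AAC-1-2, yet they averaged 772.0 and 769.8 units, close to the CAC rows. The division of reads between AAC-1-1 and AAC-1-3 varied 39.5 times as much as counting noise, against 1.44 times for AAC-1-3 and CAC-1-1, rows with different anticodons. The former pair held 137928 reads and the latter 37212, so these figures are not on the same scale. The mean of the high pair was 6.44 ± 1.49 times the mean of the 8 rows (SD, n = 23), from 4.38 to 9.003. By group, this ratio was 5.71 ± 1.37 for the 7 air libraries, 6.79 ± 1.76 for the 8 libraries of 0.4 ppm and 6.73 ± 1.21 for the 8 of 0.8 ppm, and the group ranges overlapped. How reads common to several genes were divided among the rows is not stated, and its part in these levels was not tested.

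**Figure D2:**
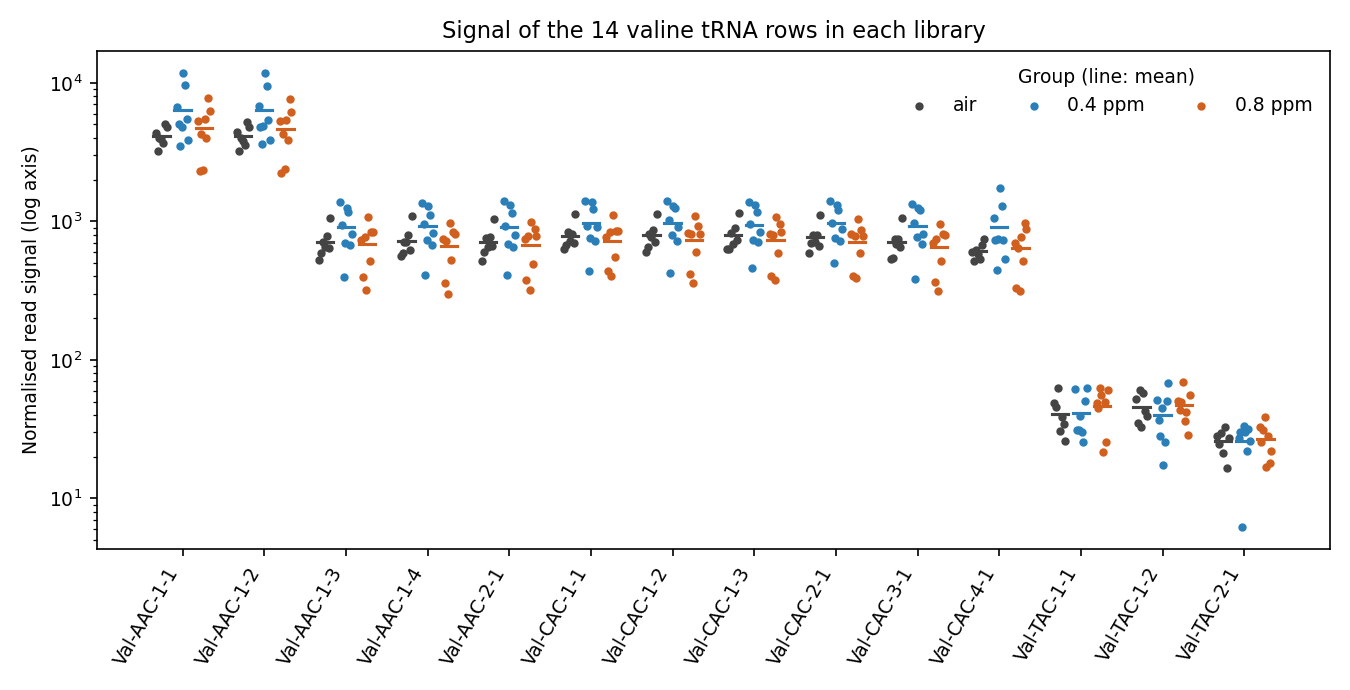
Normalised read signal (vertical log axis) of each of the 14 valine rows (horizontal axis), 1 point per library, coloured by group, with a line at each group mean. AAC-1-1 and AAC-1-2 lie highest, the 8 near-equal rows and CAC-4-1 form a middle level between 299.2 and 1730 units, and the 3 TAC rows reach at most 69.4 units, with a single point at 6.25.

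CAC-4-1 was near the 8 rows in level but followed the high pair across libraries. Its mean of 723.2 ± 312 units (SD, n = 23) lay just under the 8 near-equal rows. Across the 23 libraries, however, it followed the high AAC pair, with Pearson's r of log2(value + 1) at 0.981 and 0.982, against 0.855 to 0.879 with the 8 rows. These correlations are descriptions, since all rows share each library's depth and scaling. CAC-4-1 was 0.124 to 0.161 of the high pair's mean in every library, whereas its ratio to the mean of the 8 rows ran from 0.635 to 1.33. The split of reads between CAC-4-1 and AAC-1-1 varied 3.13 times as much as counting noise, and that between CAC-4-1 and CAC-1-1 16.0 times.

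**Figure D3:**
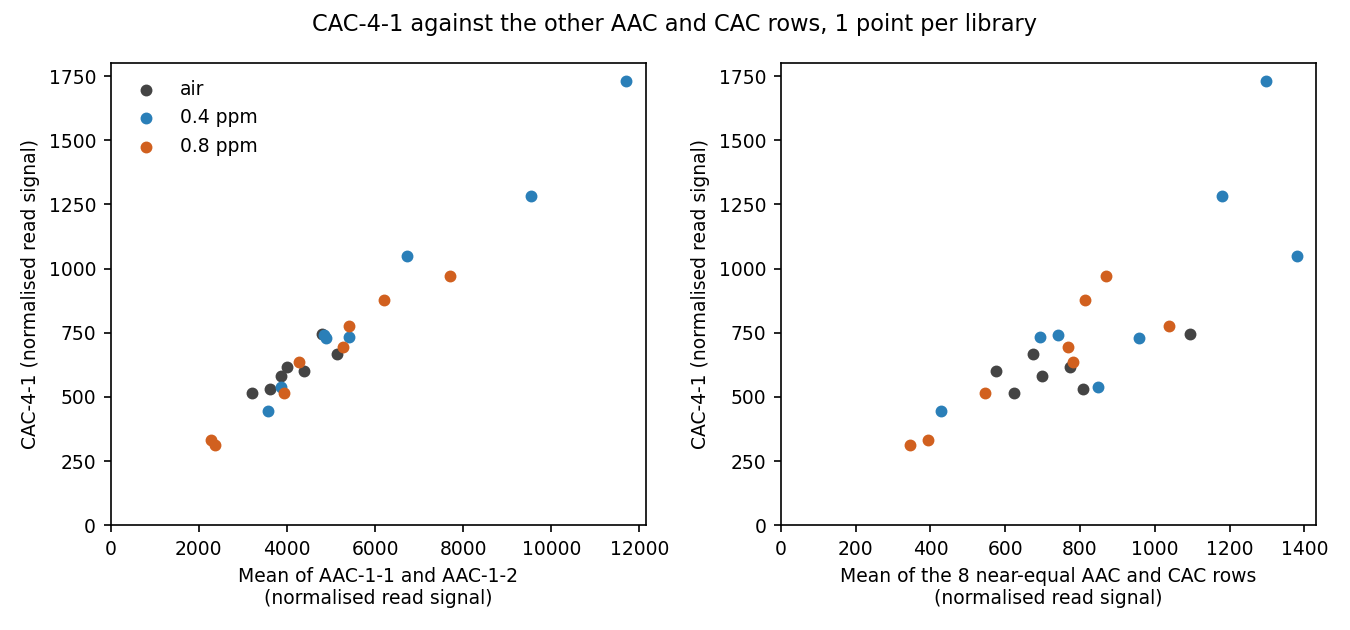
Signal of CAC-4-1 (vertical axes, normalised read signal) against the mean of AAC-1-1 and AAC-1-2 (left) and the mean of the 8 near-equal AAC and CAC rows (right), 1 point per library, coloured by group. The points lie close to a line on the left, where the ratio stays between 0.124 and 0.161, and scatter on the right, where it runs from 0.635 to 1.33.

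The TAC rows were low, at 44.2 ± 13.4 for TAC-1-2, 43.0 ± 13.8 for TAC-1-1 and 26.1 ± 7.10 for TAC-2-1 (SD, n = 23). Their recovered reads were few, from 4 to 151 in a row and library, so single values carry a large counting error. TAC rows did not follow the other valine rows: r with the 11 AAC and CAC rows ran from −0.56 to 0.17 over 23 libraries, against 0.43 to 0.75 among the 3 TAC rows.

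**Figure D4:**
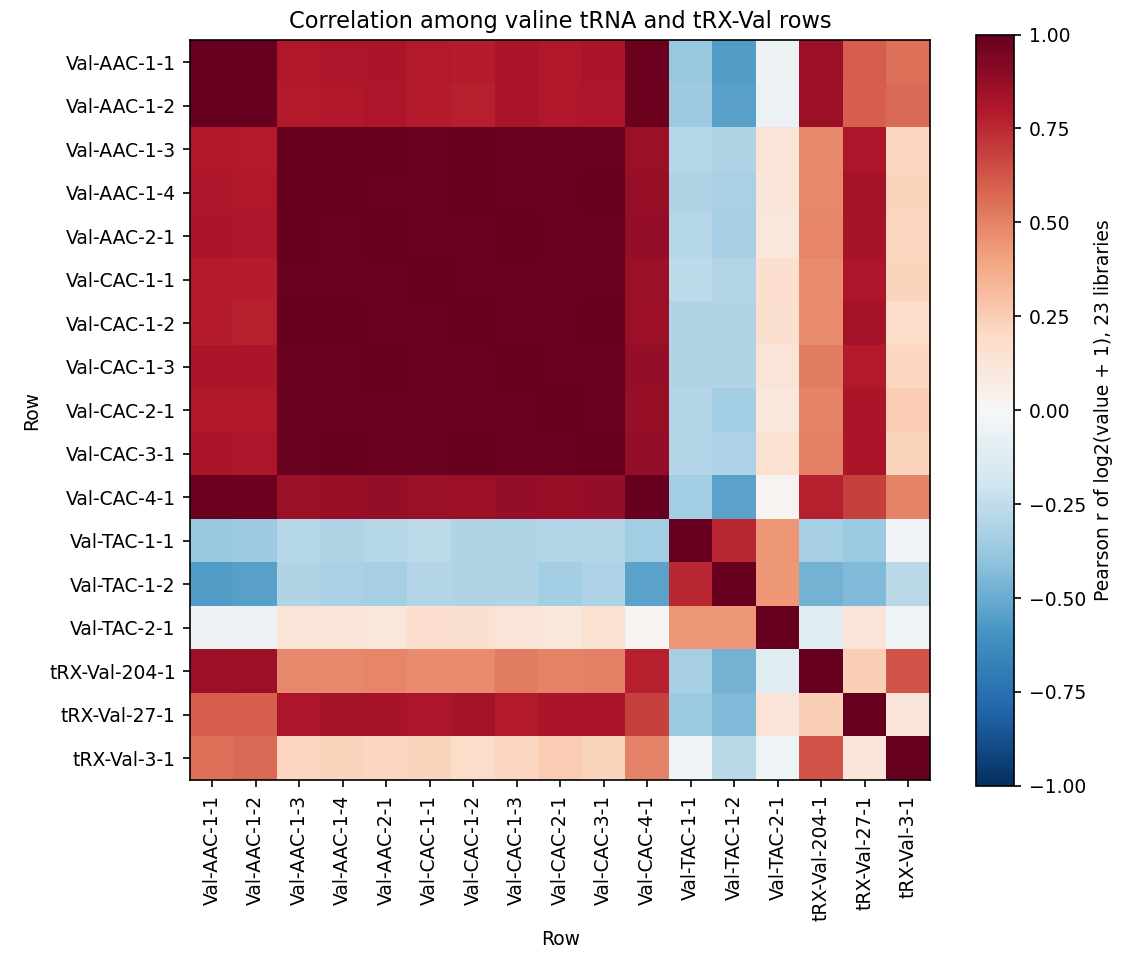
Pearson's r of log2(value + 1) over the 23 libraries between the 14 valine rows and the 3 tRX-Val rows (both axes), from −1 (blue) to 1 (red). The 8 near-equal rows form a block with r of 0.984 to 0.995, CAC-4-1 is closest to AAC-1-1 and AAC-1-2, and the TAC rows stand apart from the AAC and CAC rows.

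Rows outside valine that followed it most closely were found by the same measure. The AAC sum ran with tRX-Ala-NNN-91-1 (r = 0.991), tRX-Gly-NNN-450-1 (r = 0.923) and tRX-Val-NNN-204-1 (r = 0.812), and the CAC sum with tRX-Ala-NNN-91-1 (r = 0.914), tRX-Val-NNN-27-1 (r = 0.810) and tRNA-His-GTG-1-4 (r = 0.759), each over 23 libraries. The row tRX-Ala-NNN-91-1, named for alanine, had nearly the value of CAC-4-1 in each library, with a ratio of 0.906 to 1.15 and a median of 1.01. The TAC sum ran instead with 3 rows of the initiator methionine tRNA, iMet-CAT-1-2, 1-3 and 1-5 (r = 0.823, 0.804 and 0.775).

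In the comparison of 0.4 ppm ozone with air, which asks whether ozone alters valine tRNA in sperm, the AAC and CAC rows were higher on average but varied too much between rats to pass the test. AAC-1-1 ran from 3207 to 5078 units in air, with a median of 3990, and from 3521 to 11687 at 0.4 ppm, with a median of 5225. The groups overlapped, with 4 of 8 ozone libraries above the highest air library and none below the lowest. The log2 fold change of AAC-1-1 was 0.51 ± 0.26 (SE), with an interval of −0.018 to 1.04 (limma, unadjusted p = 0.0579, adjusted p = 0.739). AAC-1-2 gave 0.51 ± 0.26 as well, and these 2 rows are not separate evidence.

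The other valine rows differed less. CAC-4-1 had a median of 602.8 in air and 736.4 at 0.4 ppm and a log2 fold change of 0.45 ± 0.25. CAC-1-2, the most abundant CAC row, ran from 597.1 to 1137 in air (median 769.8) and from 420.4 to 1394 at 0.4 ppm (median 963.3), a log2 fold change of 0.24 ± 0.24. TAC-1-2, the most abundant TAC row, ran from 32.5 to 60.6 in air (median 42.9) and from 17.4 to 67.8 at 0.4 ppm (median 40.9), and had the lowest fold change of the 14 rows, −0.25 ± 0.25 on the log2 scale. The groups overlapped for every valine row.

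At this dose 0 of 14 valine rows passed an adjusted p of 0.05 in limma, where 0.0% of the 273 rows did, and 0 of 14 had an unadjusted p under 0.05, against 5.86% of all rows. edgeR on the recovered reads also passed 0 of 273 rows, with 26 rows (9.52%) at an unadjusted p under 0.05, among them 3 of the 14 valine rows: AAC-1-1 (log2 fold change 0.67, adjusted p = 0.377), AAC-1-2 and CAC-4-1. Fold changes were positive in 11 of 14 valine rows, against 48.0% of all rows, with a median log2 fold change of 0.29 against −0.0070. Since the 8 near-equal rows and the high pair each vary together within close to counting noise, that count holds the same signal several times over.

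Summing the rows of each anticodon lessens this repetition. It does not remove it, since the 8 near-equal rows, which vary together, lie in both the AAC and the CAC sum. Those sums are therefore not fully separate evidence. The AAC sum averaged 10436 ± 1568 in air and 15382 ± 6537 at 0.4 ppm, a log2 fold change of 0.47 ± 0.25 with an interval of −0.046 to 0.98 (limma adjusted p = 0.648 over 55 sums). CAC averaged 4459 ± 917 and 5684 ± 1987, with 0.29 ± 0.24 (adjusted p = 0.648), and TAC 112.4 ± 25.1 and 107.6 ± 33.9, with −0.10 ± 0.21 (adjusted p = 0.807). None of the 55 sums passed in limma or edgeR, and each tool gave 2 sums (3.64%) at an unadjusted p under 0.05, none of them a valine sum.

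**Figure D5:**
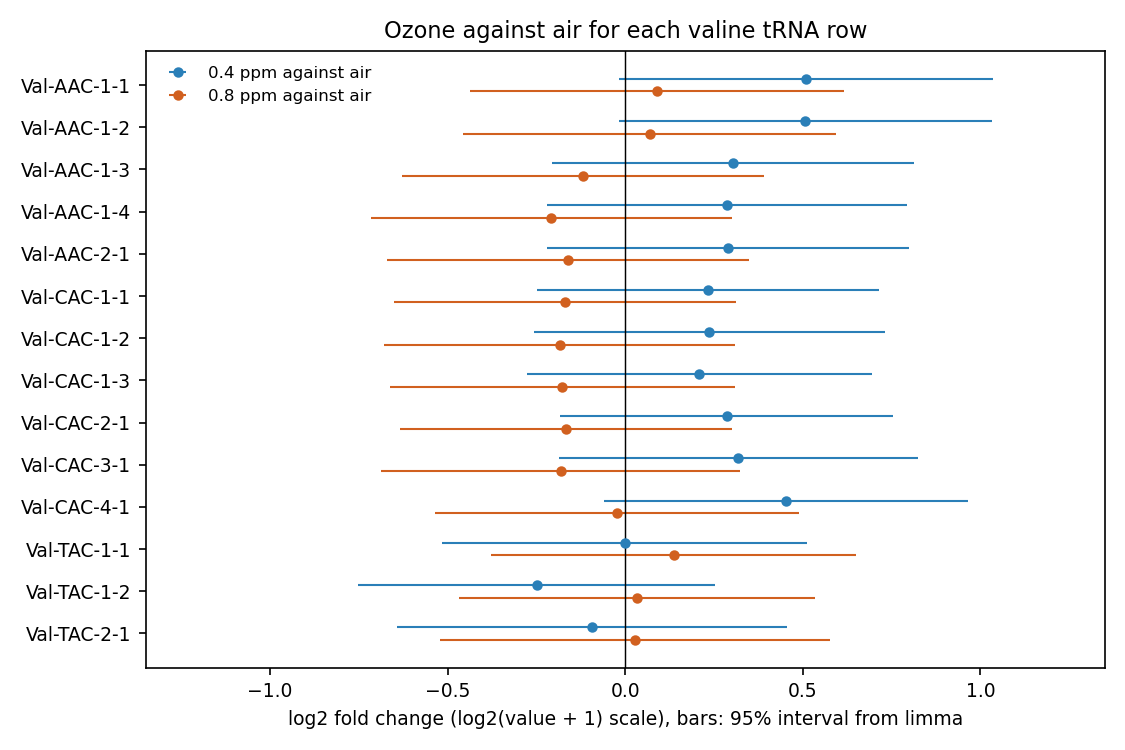
Log2 fold change on the log2(value + 1) scale (horizontal axis) of each of the 14 valine rows (vertical axis) at 0.4 ppm and 0.8 ppm against air, with 95% intervals from limma. Every interval includes 0, and the AAC and CAC rows lie to the right at 0.4 ppm, up to 0.51, and around or left of 0 at 0.8 ppm, down to −0.21.

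At 0.4 ppm, 2 libraries of the group had the highest valine shares. Replicates 5 and 6 of that group had valine shares of 9.77% and 10.8%, and AAC-1-1 at 11687 and 9623 units. They were picked for those shares, so leaving them out was bound to lower the AAC difference, and the fits without them are descriptions. Without them the group's AAC-1-1 averaged 4882 ± 1147 (n = 6), and the fold change of the AAC sum against air was 0.20 (limma adjusted p = 0.933) in place of 0.47. The CAC sum was then 0.11 in place of 0.29. Replicates 5 and 6 also had the lowest miRNA read totals of their group, 288857 and 251123, its lowest germ-cell miRNA shares, 23.6% and 29.7%, and its highest muscle and stroma shares, 4.17% and 3.23%. They did not share the other markers: the epithelial share was the group's lowest in replicate 5, at 1.06%, and its highest in replicate 6, at 3.23%. Such traits also occurred with valine shares lower than those of replicates 5 and 6. Some of these shares lay above the highest air library, at 4.81%, and others did not. The library with the fewest miRNA reads of all, 0.8 ppm replicate 5 with 213839, had a valine share of 5.02%. That of 0.8 ppm replicate 7, with 24.1% germ-cell and 11.3% muscle and stroma signal, was 5.10%. Air replicate 6 had the lowest germ-cell share in air, 30.8%, and the highest muscle and stroma share in air, 2.79%. Its valine share was 3.86%. In 0.4 ppm replicate 3, muscle and stroma held 2.98% and valine 2.57%, the lowest valine share of all libraries. In a fit that held log2 miRNA reads as a covariate, the AAC sum at 0.4 ppm against air was 0.28 ± 0.22 and the CAC sum 0.12 ± 0.21 (SE; limma adjusted p = 0.717 for both). The part of other cells in the valine signal was not tested.

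As a share of the tRNA table, valine held 4.04% ± 0.538 of the signal over the 7 air libraries, 6.004% ± 2.91 over the 8 of 0.4 ppm and 5.06% ± 1.49 over the 8 of 0.8 ppm (SD). The air libraries lay within a 1.34-fold range, against 4.18-fold at 0.4 ppm and 2.48-fold at 0.8 ppm. A range narrowest in air was not particular to valine. In the same order it was 1.37-fold, 1.47-fold and 1.72-fold for Gly-GCC and 1.40-fold, 1.56-fold and 2.21-fold for Glu-CTC. For Asp-GTC it was 2.25-fold, 3.37-fold and 3.86-fold. Glu-TTC did not follow this, at 2.55-fold, 2.45-fold and 3.60-fold. Above the highest air library lay 4 of 8 libraries at 0.4 ppm and 5 of 8 at 0.8 ppm, and 1 of 8 in each group lay below the lowest. At 0.8 ppm, 5 of 8 were also above air for the shares of Glu-CTC, His-GTG and Asp-GTC. The number was 2 for Glu-TTC and Lys-CTT, 1 for Leu-CAA and 0 for Gly-GCC and Gly-CCC. For the AAC share, 4 of 8 libraries were above air at either dose. As many or more were above air for 9.09% of the 55 sums at 0.4 ppm and for 29.1% at 0.8 ppm. These percentages count the AAC sum itself, along with the CAC sum at 0.4 ppm and the TAC sum at 0.8 ppm. Within groups, the SD of the log2 sum was 0.516 for AAC, which ranked 11 of 55, 0.487 for CAC, which ranked 16, and 0.412 for TAC, which ranked 32, beside a median of 0.437 over all sums. Among the 14 sums that held at least 1% of the table, AAC ranked 4 and CAC ranked 6 by this SD.

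At 0.8 ppm against air, log2 fold changes of the valine rows ran from −0.21 to 0.14 on the deposited scale. AAC-1-1 ran from 2318 to 7765 units with a median of 4795, with 4 of 8 libraries above the highest air library and 2 below the lowest. Its log2 fold change was 0.090 ± 0.26, with an interval of −0.44 to 0.62 (limma adjusted p = 0.976). AAC-1-4, the row with the smallest unadjusted p, ran from 557.4 to 1086 in air (median 708.5) and from 299.2 to 980.0 at 0.8 ppm (median 730.8), and gave −0.21 ± 0.25 (limma adjusted p = 0.935). TAC-1-1, with the highest fold change at this dose, had a median of 38.4 in air and 49.1 at 0.8 ppm, and gave 0.14 ± 0.25 (adjusted p = 0.954).

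None of the 14 valine rows passed limma at 0.8 ppm, as for 0.0% of all rows, and none had an unadjusted p under 0.05, against 1.83% of rows in limma (5 rows) and 2.93% in edgeR (8 rows), where 0 passed adjustment. Fold changes were positive in 5 of 14 valine rows, against 47.6% of all rows, with a median of −0.14 against −0.016. The sums gave 0.030 ± 0.25 for AAC, −0.15 ± 0.24 for CAC and 0.068 ± 0.21 for TAC (limma adjusted p = 0.957, 0.895 and 0.922). Of the 55 sums 0 passed at this dose in either tool, and 0 in limma and 1 (1.82%) in edgeR, not a valine sum, had an unadjusted p under 0.05. The direction at this dose depended on scaling. When values were scaled to each library's tRNA total, the median of all rows moved to 0.28, all 14 valine rows were positive with a median of 0.16, and the sums became 0.33 for AAC, 0.15 for CAC and 0.37 for TAC (limma adjusted p = 0.665, 0.749 and 0.665). In the rows, where the 8 near-equal rows count 8 times, the median of valine lay below that of all rows under both scalings. In the sums the order was the opposite. The valine median was 0.030 against −0.084 for all sums as deposited, and 0.33 against 0.22 when scaled to the tRNA total.

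Between the ozone groups, AAC and CAC rows were lower at 0.8 ppm than at 0.4 ppm on average. AAC-1-4 ran from 412.6 to 1361 units at 0.4 ppm with a median of 890.8, above the 730.8 at 0.8 ppm, and gave −0.49 ± 0.24 on the log2 scale (limma unadjusted p = 0.0484, adjusted p = 0.751). CAC-3-1 had medians of 888.1 and 721.6 and gave −0.50 ± 0.24 (limma unadjusted p = 0.0452, adjusted p = 0.751). These 2 of 14 valine rows were among the 6 rows (2.2%) with an unadjusted p under 0.05 in limma, and 0 of 273 (0.0%) passed adjustment in limma or in edgeR, which gave 13 rows (4.76%) at an unadjusted p under 0.05, 4 of them valine rows. Negative fold changes were found in 11 of 14 valine rows, against 51.6% of all rows, with a median of −0.42. AAC-1-4 and CAC-3-1 are both among the near-equal rows, which vary together within close to counting noise. They are not separate evidence, and these counts of valine rows hold the same signal several times over. The AAC and CAC sums both gave −0.44, with SE of 0.24 and 0.23 (limma adjusted p = 0.716), and TAC gave 0.17 ± 0.20 (adjusted p = 0.912). Of the 55 sums, 0 passed in either tool, and 1 (1.82%) in limma and 2 (3.64%) in edgeR had an unadjusted p under 0.05, none of them for valine. The AAC and CAC differences shrank to −0.16 each when scaled to the tRNA total, to −0.20 and −0.27 with quantile normalization, to −0.26 and −0.29 with miRNA depth as a covariate, and to −0.17 and −0.26 without 0.4 ppm replicates 5 and 6. Replicates 5 and 6 were picked for their high valine shares, so the fit without them is a description. This contrast uses the same 0.4 ppm libraries as that with air, so it is not separate evidence on them.

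A linear trend with ppm passed 0 of 14 valine rows and 0.0% of all rows, with 0 valine rows and 1.83% of all rows in limma (5 rows) and 2.2% in edgeR (6 rows) at an unadjusted p under 0.05. Per ppm, the slopes of the log2 sums were 0.012 ± 0.33 for AAC, −0.21 ± 0.31 for CAC and 0.093 ± 0.26 for TAC (SE; limma adjusted p = 0.9905, 0.898 and 0.938). Scaled to the tRNA total, they were 0.40, 0.17 and 0.48 (limma adjusted p = 0.624, 0.742 and 0.624).

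The tRX-Val rows were lower than every AAC and CAC row, at 80.5 ± 45.8 for tRX-Val-NNN-204-1, 14.9 ± 7.36 for tRX-Val-NNN-27-1 and 6.77 ± 3.82 for tRX-Val-NNN-3-1 (SD, n = 23). tRX-Val-NNN-204-1 followed the high AAC pair (r = 0.856 and 0.859) more closely than the 8 near-equal rows (r = 0.473 to 0.520), and tRX-Val-NNN-27-1 the reverse (r = 0.596 and 0.607 against 0.794 to 0.833). tRX-Val-NNN-3-1, with 1 to 19 reads in a library, had the smallest unadjusted p of the 273 rows at 0.4 ppm, at a log2 fold change of 0.97 ± 0.34, and the second smallest at 0.8 ppm, at 0.85 ± 0.34 (limma unadjusted p = 0.00686 and 0.0166, adjusted p = 0.627 and 0.935). Summed, the 3 rows, of which tRX-Val-NNN-204-1 holds most of the signal, gave 0.52 ± 0.29 at 0.4 ppm and 0.19 ± 0.29 at 0.8 ppm against air on the log2 scale (limma adjusted p = 0.648 and 0.895).

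Other tRNA lists showed no passing row either. Of 69 rows of isoacceptors known from sperm fragments (Gly-GCC, Gly-CCC, Glu-CTC, Glu-TTC, Lys-CTT, His-GTG and Asp-GTC), 0 rose and 0 fell against air at either dose in limma, with median log2 fold changes of 0.10 and 0.032. The 31 rows for leucine and isoleucine, the other branched-chain amino acids, also had 0 in each direction, with medians of −0.16 and −0.10. Valine signal was 0.163 ± 0.0690 of that of Gly-GCC (SD, n = 23), the most abundant isoacceptor with 31.8% of the table, and 0.721 ± 0.316 of that of Glu-CTC. Of 20 genes for tRNA charging, modification and cleavage, such as the valine synthetase Vars1 and the ribonuclease Ang, 0 were among the 617 transcripts of the Ensembl table.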

How the data were processed

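Small RNA of cauda sperm was sequenced from 23 rats. Per the submitters' processing notes, Bowtie 1.0.0 and Partek were used with the genome rn6. The division of reads that match several tRNA genes is not stated in the sources used. Per tRNA gene name, the authors deposited a scaled read signal. It behaves as whole reads times a library factor, with no division by length: of 265 to 273 values examined per library, 100% fell within 0.1 read of a whole number. The factors equalise the median ratio of the libraries over the tRNA rows.

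Every row above 0 in at least 8 libraries was tested, which kept 273 rows and all 14 valine rows. On log2(value + 1), a model of all 3 groups was fitted with limma 3.58.1 (R 4.3.3; mean-variance trend, robust moderation). The same fit was made on 55 isoacceptor sums, each the sum of the rows of an isotype and anticodon, with tRX rows summed under their own labels. Adjusted p is Benjamini-Hochberg over the whole table within a contrast, two-sided, at 0.05, and intervals are 95% intervals of that model. The fit was also run on simulated data whose rows varied independently, so that check does not cover rows that vary together. Alternatives were other pseudocounts, filters and scalings, library weights, the miRNA read depth as a covariate, an exact rank-sum test, fits to the groups compared alone, and leaving out each rat. edgeR 4.0.16 on the recovered tRNA reads, and leaving out 2 libraries together, were added after the values were seen.

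The members, comparison lists and tests were chosen with earlier results of these data known. Named with full values were the most abundant row of each anticodon, the 5 most abundant valine rows, and the rows with the smallest unadjusted p and with the highest and lowest fold change in each contrast against air. CAC-4-1 and the grouping of rows by level were chosen after their values were seen. Figures were drawn with matplotlib 3.10.9.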

Additional observations from a re-analysis of the deposited data

Results flagged for a closer look

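Of 57 sets of 1 valine measure in 1 group that were checked for a library far from the rest, 5 had such a library, and chance marks about 1 in 20. In air, replicate 7 was far above the others for 3 CAC rows and for the sum of all 6. CAC-1-1 was 1136 there, against 841.8 in the next library. CAC-2-1 was 1106, against 802.3. CAC-3-1 was 1064, against 746.6. The CAC sum was 6326, against 4647. These rows move together, so they amount to a single departure. It was not confined to CAC: AAC-1-3, AAC-1-4 and AAC-2-1 were also highest in air in replicate 7, at 1055, 1086 and 1035, though not flagged. The same held for CAC-1-2 and CAC-1-3. AAC-1-1 in that rat, at 4774, was within the range of the other air libraries. At 0.4 ppm, TAC-2-1 was 6.25 in replicate 3, against 21.9 in the next lowest library.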

How the results depend on the processing

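No valine row or sum passed 0.05 in any setting. Scaled to the tRNA total, the CAC sum turned to 0.15 at 0.8 ppm against air and 0.17 in the trend, and CAC-1-2, CAC-1-1, CAC-1-3 and AAC-1-4 at 0.8 ppm to 0.12, 0.13, 0.13 and 0.095. Quantile normalization turned the CAC sum to 0.080 and 0.082 in these, the TAC sum to 0.13 at 0.4 ppm against air and −0.016 at 0.8 against 0.4 ppm, CAC-1-3 at 0.4 ppm to −0.041 and TAC-1-2 at 0.8 ppm to −0.019. At 0.4 ppm the TAC sum became 0.11 with library weights, 0.074 with miRNA depth as a covariate and 0.050 without replicates 5 and 6. TAC-1-2 became 0.037 with weights and 0.014 without those replicates. TAC-1-1, near 0, became 0.0012 with a pseudocount of 10, 0.021 scaled to the tRNA total, 0.19 with weights, 0.21 with the covariate, 0.16 without those replicates and 0.053 in edgeR. The cause was not tested.

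Leaving out each rat in turn gave ranges that crossed 0 at 0.8 ppm against air for the AAC sum (−0.079 to 0.16), the TAC sum (−0.0028 to 0.16), AAC-1-1 (−0.029 to 0.22), AAC-1-2 (−0.049 to 0.20) and TAC-1-2 (−0.053 to 0.13). The trends of AAC (−0.099 to 0.20) and TAC (−0.0035 to 0.21) and TAC-1-1 at 0.4 ppm (−0.099 to 0.11) did so too. The AAC sum at 0.4 ppm stayed positive, from 0.34 without 0.4 ppm replicate 5 to 0.58 without replicate 3, as did the CAC sum (0.20 to 0.43, without the same replicates) and CAC-1-2 (0.15 without replicate 1 to 0.40 without replicate 3). At 0.8 ppm the CAC sum ran from −0.24 without 0.8 ppm replicate 5 to −0.030 without replicate 4. Quantile normalization moved the AAC sum at 0.8 ppm to 0.27 and its trend to 0.31. No paired analysis was possible because the labels give no replicate numbers shared between the groups. The labels carry 12 sequencer sample numbers, 11 of them on 2 libraries, and no run, so no batch could be assigned. TAC sums rest on 31 to 356 reads per library.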
